A study of Mus musculus with 4 samples.

Results

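Cd34 and 8 growth factor receptor genes of blood stem cells and myeloid progenitors were followed in 4 mouse leukaemia cell lines by RNA sequencing. The 9 genes, chosen by name, are Cd34, Kit, Flt3, Csf1r, Csf2ra, Csf2rb, Csf2rb2, Csf3r and Il3ra, out of 21889 genes listed. All 9 were among the 10066 genes with a mean of at least 1 FPKM over the 4 libraries, called expressed genes here. FPKM (fragments per kilobase of transcript, scaled to the mapped fragments of the library) corrects for length and depth, so levels of different genes can be set side by side per length.

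The lines come from acute myeloid leukaemias of BXH-2 mice, a strain prone to myeloid leukaemia through an endogenous retrovirus. B117H and B140H are highly resistant to Ara-C (cytarabine), a deoxycytidine analogue that blocks DNA synthesis. B117P and B140P are labelled as their parental lines and as sensitive. The labelled IC50 of Ara-C was near 160 µg/ml in B117H and 150 ng/ml in B117P, and near 60 µg/ml in B140H and 110 ng/ml in B140P. All 4 lines were grown in ASM medium without Ara-C, and the labels describe exposure to rising Ara-C concentrations for each line. The lines of each pair are called lineage B117 and lineage B140. There was 1 library per line, so no level has a replicate error, and a change is described by its size and called at 2-fold or more. Ratios are log2 ratios of FPKM + 1, which understate the change of genes with low levels.

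Early blood progenitors carry Cd34, a sialomucin of the cell surface, and the receptor tyrosine kinases Kit and Flt3, which answer to stem cell factor and Flt3 ligand. Progenitors that commit to the myeloid lineage gain receptors for the colony-stimulating factors, which drive the growth of macrophages (M-CSF), granulocytes (G-CSF) or both (GM-CSF). Receptors for GM-CSF and interleukin 3 pair an alpha chain that is specific for the ligand with a signalling beta chain and signal through Jak2 and Stat5. The G-CSF receptor also uses JAK kinases and STAT factors.

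The spacing of low FPKM values gave an estimated 19770000 fragments for B117H, 22210000 for B117P, 24740000 for B140H and 19130000 for B140P. Of the 10 genes listed as markers of a myeloid leukaemia line, 0 were under 1 FPKM in B117H and in B117P, against 4 in B140H and 3 in B140P. That list includes Csf2rb, itself among the 9 genes followed. Mpo, the myeloperoxidase of neutrophil granules, was at 473 FPKM in B117H and 1450 FPKM in B117P, and at 0.913 FPKM in B140H and 10.4 FPKM in B140P. Cd33, on the same list, had the opposite order, at 10.6 FPKM in B117H and 8.58 FPKM in B117P, and at 54.8 FPKM in B140H and 120 FPKM in B140P. Ptprc, the leukocyte antigen CD45, lay between 50.1 and 89.0 FPKM in the 4 lines, and Sfpi1, the listed symbol of the PU.1 gene Spi1, between 76.6 and 111 FPKM. The 8 B cell markers summed to 83.04 FPKM in B117H and 10.5 FPKM in B117P, most of it Vpreb1, and to 128 FPKM in B140H and 169 FPKM in B140P. In B140H and B140P 5 of the 8 were at or above 1 FPKM, while Ms4a1 was listed at 0 in both. The listed coordinates of 6 genes, none of them among the 9, differed between the lineages, and those of 0 genes within one. Separate normalisation of the lineages is therefore possible, and each level set across them carries that limit.

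The clearest pattern was between the lineages. Cd34, Kit, Csf2ra and Csf2rb2 were at 2.16 FPKM or more in B117H and B117P and at or near 0 in B140H and B140P. Flt3 was high in all 4 lines and highest in lineage B140. Within lineage B117 the granulocyte receptor Csf3r and the GM-CSF receptor chain Csf2ra were lower in the resistant line, and in lineage B140 none of the 9 genes passed the 2-fold rule.

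**Figure D1:**
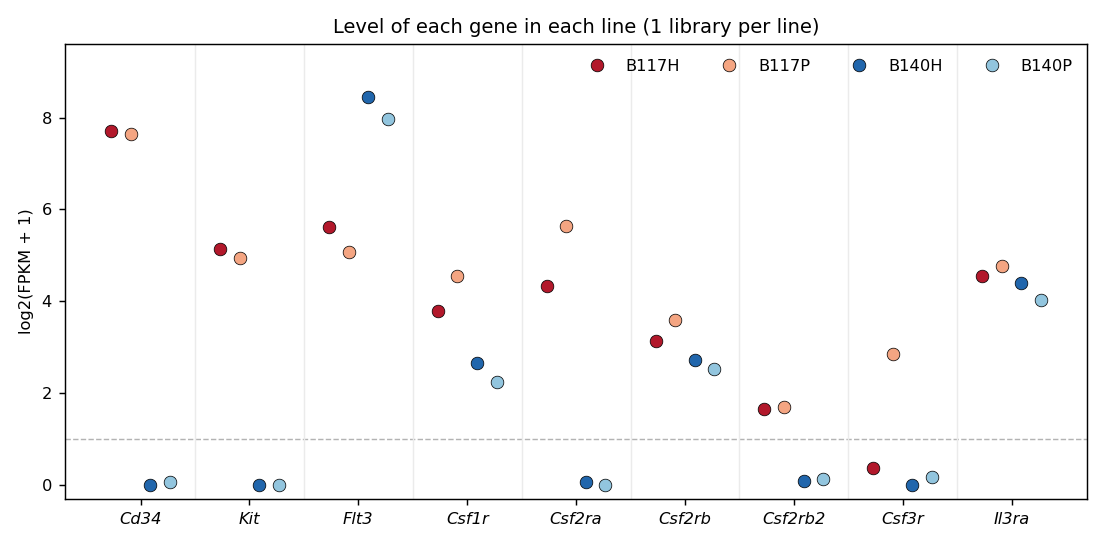
Level of each of the 9 genes on the log2(FPKM + 1) scale (vertical axis) in B117H, B117P, B140H and B140P, 1 point per library, with a dashed line at 1 FPKM. Cd34, Kit, Csf2ra and Csf2rb2 are above the line in lineage B117 and at the bottom in lineage B140, Flt3 is highest in B140H at 347 FPKM, and Csf3r is above the line in B117P alone.

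Among the progenitor markers, Cd34 was at 206 FPKM in B117H and 200 FPKM in B117P (199.81 before rounding). In lineage B140 it was listed at 0 in B140H and at 0.0432 FPKM in B140P. The value in B140P corresponds to an estimated 2.11 fragments, below the 0.0614 FPKM that 3 fragments would give. An exact 0 in these files can be a failed estimate, since Cenpb, a centromere protein gene, is listed at 0 in B140H and at 11.5 FPKM in B140P. Cd34 was among the more abundant transcripts of both B117 lines, at rank 298 of 21188 genes other than small RNA genes in B117H and at rank 334 in B117P. The log2 ratio of B117H over B117P was 0.05. In mm9, the build of the gene spans given here (promoters are in GRCm38), Cd34 is listed on chromosome 1 from 196765015 to 196803153. That span is also given to the unnamed clone C030002c11rik, at 6.46 FPKM in B117H, 4.55 FPKM in B117P, 0 in B140H and 0.0214 FPKM in B140P. Whether strand was used in counting is not given in the sources used here, so reads of these overlapping genes could have been divided between them.

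Kit showed the same split. It was at 34.2 FPKM in B117H and 29.9 FPKM in B117P, and was listed at 0 in B140H and B140P. At the estimated depths 3 fragments on its longest coding transcript would give 0.0231 FPKM in B140H and 0.0299 FPKM in B140P. Since both are listed zeros, no fold is given. Kit lies on chromosome 5 from 75971012 to 76052746. Of the 10 genes nearest to it, 5 were expressed and 0 of them passed the 2-fold rule in any of the comparisons made. Between 3.94% and 18.9% of all expressed genes passed it, depending on the comparison.

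The promoters of Kit and Cd34 are shown because both transcripts were abundant in lineage B117 and at or near 0 in lineage B140. Each stretch holds the 250 bases before the RefSeq start (GRCm38.p6), 5′ to 3′ on the gene's strand. Capitals mark matches to GAGGAA, the core of sites bound by PU.1, to the C/EBP motif TTNCNNAA or to the RUNX motif TGTGGT, each searched on both strands. Kit is at chr5:75574737-75574986 (+ strand, the first of its listed starts) and Cd34 at chr1:194938571-194938820 (+ strand).
Kit: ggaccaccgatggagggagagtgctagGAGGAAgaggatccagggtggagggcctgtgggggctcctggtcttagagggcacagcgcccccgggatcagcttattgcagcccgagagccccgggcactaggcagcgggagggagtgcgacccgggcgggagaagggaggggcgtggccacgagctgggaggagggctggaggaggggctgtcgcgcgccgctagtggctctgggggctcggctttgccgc
Cd34: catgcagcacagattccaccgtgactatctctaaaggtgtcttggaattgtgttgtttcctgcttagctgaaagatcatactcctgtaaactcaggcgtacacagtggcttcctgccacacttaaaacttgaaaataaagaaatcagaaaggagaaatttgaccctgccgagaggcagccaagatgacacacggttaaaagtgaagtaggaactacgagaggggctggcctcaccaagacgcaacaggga
Kit holds 1 match to GAGGAA and no match to the other motifs, and Cd34 holds no match to any of them. Over 32851 promoters of the same length, 23.3% hold GAGGAA, 36.8% hold TTNCNNAA and 14.0% hold TGTGGT. The matches are a description of letters and not of binding.

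Flt3 ran against Cd34 and Kit. It was at 48.0 FPKM in B117H and 32.9 FPKM in B117P, and at 347 FPKM in B140H and 249 FPKM in B140P. It was the most abundant of the 9 genes in both B140 lines, at rank 215 in B140H and rank 241 in B140P among genes other than small RNA genes. The B140H level was 723% of that of B117H, with a 95% counting interval of 699% to 750%, and the B140P level was 758% of that of B117P, with an interval of 728% to 790%. The log2 ratios were 2.83 and 2.89. In both lineages Flt3 was higher in the resistant line without passing the 2-fold rule, with log2 ratios of 0.53 for B117H over B117P and 0.48 for B140H over B140P. Its ligand gene Flt3l, the only expressed gene among the 8 ligand genes of these receptors, was at 1.80 FPKM in B117H and 0.921 FPKM in B117P, and at 6.58 FPKM in B140H and 6.05 FPKM in B140P. Kitl, Il3 and Il34 were listed at 0 in all 4 lines. Csf2, the GM-CSF gene, was at 0.841 FPKM in B140P and listed at 0 in the other lines. Csf1, Csf3 and Il5 were at or below 0.118 FPKM.

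The genes around Flt3 were also higher in lineage B140. Flt3 lies on chromosome 5 from 148142317 to 148212065. Of the 7 other expressed genes within 500 kb of it, 6 were higher in B140P than in B117P past the 2-fold rule and 1 was lower, with a median log2 ratio of 1.75. Over all expressed genes 5.83% were higher in that comparison. In B140H over B117H the same window gave 6 higher and 1 lower, with a median of 1.997, against 9.69% of all expressed genes higher. Polr1d, a subunit of RNA polymerases I and III, was at 806 FPKM in B140H and 125 FPKM in B117H, and at 555 FPKM in B140P and 147 FPKM in B117P. Pan3, a subunit of a poly(A) nuclease, was at 87.6 FPKM in B140H and 36.1 FPKM in B117H, and at 76.8 FPKM in B140P and 28.8 FPKM in B117P. The exception was Flt1, a receptor of vascular endothelial growth factor, at 0.00635 FPKM in B140H and 11.4 FPKM in B117H, and listed at 0 in B140P against 18.5 FPKM in B117P. Polr1d, Pan3 and Flt1 were picked with their values known.

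The higher levels reached beyond the nearest genes. Between 500 kb and 3 Mb from Flt3 on either side, 22 of 29 expressed genes were higher in B140P than in B117P and 1 was lower, with a median of 1.28. From 3 to 6 Mb the median was 1.55 toward higher coordinates, with 5 of 6 higher, and 0.44 toward lower coordinates, with 9 of 26 higher, and 0 were lower in either. From 6 to 12 Mb toward lower coordinates the median was -0.13, with 5 of 80 higher and 4 lower, and on chromosome 5 beyond 12 Mb it was 0.04, with 18 of 499 higher and 37 lower. In B140H over B117H the median was 1.78 from 500 kb to 3 Mb, with 25 of 29 higher, and 1.58 and 1.03 from 3 to 6 Mb toward higher and lower coordinates, with 6 of 6 and 13 of 26 higher. From 6 to 12 Mb it was 0.89, with 34 of 80 higher and 1 lower, and beyond 12 Mb it was 0.36, with 92 of 499 higher and 30 lower. In B140H over B140P the window from 6 to 12 Mb had a median of 0.80, with 28 of 80 genes higher and 0 lower. Beyond 12 Mb the median of B140H over B140P was 0.19, with 19 of 499 higher and 4 lower. Of all expressed genes 2.31% were higher and 1.63% lower in that comparison. With the median of the genes within 500 kb taken off, the Flt3 ratio was 1.13 for B140P over B117P and 0.83 for B140H over B117H, and the second of these no longer passed the 2-fold rule. How much of the Flt3 level goes with its chromosome region was not tested further.

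**Figure D2:**
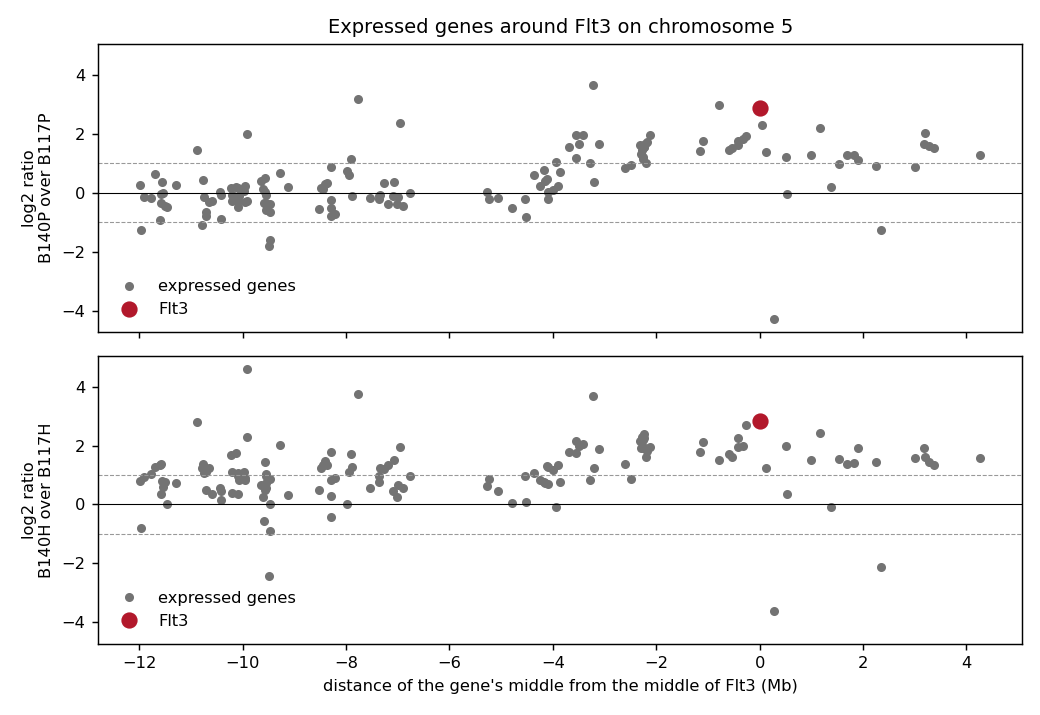
Log2 ratio of FPKM + 1 (vertical axes) of B140P over B117P (top) and B140H over B117H (bottom) for each expressed gene by its distance from the middle of Flt3 in Mb (horizontal axis), toward lower coordinates on the left, with dashed lines at 2-fold. Flt3, in red, stands among genes that are mostly above the upper line near it, and the genes from 6 to 12 Mb toward lower coordinates centre on -0.13 in the top panel.

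Among the colony-stimulating factor receptors, Csf3r, the receptor for G-CSF, differed most between a resistant line and its parent. It was at 0.286 FPKM in B117H, against 6.19 FPKM in B117P. B117H thus had 4.61% of the B117P level, with a 95% counting interval of 2.84% to 7.33%, and the log2 ratio was -2.48. In lineage B140 it was listed at 0 in B140H and at 0.124 FPKM in B140P, an estimated 8.28 fragments, so B117P was the only line with more than 1 FPKM. In these bulk libraries a smaller number of cells with the transcript and less transcript per cell cannot be told apart. Csf3r lies on chromosome 4 from 125701903 to 125721684. Of its 10 nearest neighbours 7 were expressed, and 0 of the 7 passed the 2-fold rule for B117H over B117P. Of all expressed genes 4.62% passed it there. In B140P over B117P 4 of these 7 were lower and 1 was higher, against 10.8% and 5.83% of all expressed genes.

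Csf2ra, the ligand-binding chain of the GM-CSF receptor, was the other gene past the rule in lineage B117. It was at 19.1 FPKM in B117H, against 48.9 FPKM in B117P. This was 39.0% of the B117P level, with a counting interval of 35.8% to 42.6%, and a log2 ratio of -1.31. In lineage B140 it was at 0.0461 FPKM in B140H, an estimated 2.11 fragments, and listed at 0 in B140P. Csf2ra lies on chromosome 19 from 61300305 to 61304321, and 0 of the 5 expressed genes nearest to it passed the rule in any comparison. Between 3.94% and 18.9% of all expressed genes passed it, depending on the comparison.

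The promoters of Csf3r and Csf2ra are shown because these were the genes past the rule in B117H. Csf3r is at chr4:126024409-126024658 (+ strand) and Csf2ra at chr19:61228419-61228668 (- strand), each 250 bases before the RefSeq start in GRCm38.p6, with capitals for the same motifs.
Csf3r: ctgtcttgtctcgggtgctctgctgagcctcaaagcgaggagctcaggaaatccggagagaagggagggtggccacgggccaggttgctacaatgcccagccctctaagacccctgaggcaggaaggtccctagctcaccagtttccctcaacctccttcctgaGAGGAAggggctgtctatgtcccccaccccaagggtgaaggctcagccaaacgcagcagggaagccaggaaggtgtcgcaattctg
Csf2ra: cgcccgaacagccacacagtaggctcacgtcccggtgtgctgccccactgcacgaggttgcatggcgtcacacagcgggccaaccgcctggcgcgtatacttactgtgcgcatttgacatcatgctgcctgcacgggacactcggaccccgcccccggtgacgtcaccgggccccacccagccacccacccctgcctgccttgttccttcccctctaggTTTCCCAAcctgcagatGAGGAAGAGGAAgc
Csf3r holds 1 match to GAGGAA, and Csf2ra holds 2 that lie end to end just before its start. Csf2ra also holds 1 match to TTNCNNAA, and neither holds TGTGGT. Of the promoters scanned, 3.54% hold 2 or more matches to GAGGAA.

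Csf1r, the receptor for M-CSF and interleukin 34 on monocytes and macrophages, was at 12.8 FPKM in B117H and 22.5 FPKM in B117P. The log2 ratio was -0.77, short of the 2-fold rule, with B117H at 56.7% of the B117P level and a counting interval of 52.8% to 60.8%. In lineage B140 it was at 5.31 FPKM in B140H and 3.73 FPKM in B140P, a log2 ratio of 0.42. The B140 lines had lower levels, with log2 ratios of -1.12 for B140H over B117H and -2.31 for B140P over B117P.

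The shared beta chain of the GM-CSF, interleukin 3 and interleukin 5 receptors, Csf2rb, and the interleukin 3 receptor alpha chain, Il3ra, were present in all 4 lines. Csf2rb was at 7.79 FPKM in B117H and 11.1 FPKM in B117P, and at 5.60 FPKM in B140H and 4.75 FPKM in B140P. Its log2 ratios were -0.46 for B117H over B117P and 0.20 for B140H over B140P. Il3ra varied least of the 9 genes, with a span of 0.74 on the log2 scale over the 4 libraries. It was at 22.5 FPKM in B117H and 26.1 FPKM in B117P, and at 20.2 FPKM in B140H and 15.2 FPKM in B140P.

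The balance of the chains per length therefore differed between the lineages. Csf2ra was 2.45 times Csf2rb in B117H and 4.41 times in B117P, but 0.00824 times in B140H and at 0 in B140P. Il3ra was 2.89 times Csf2rb in B117H and 2.35 times in B117P, and 3.60 times in B140H and 3.21 times in B140P. These are ratios of transcript levels from 1 library per line and say nothing of the receptors at the surface.

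Csf2rb2, the beta chain that serves interleukin 3 alone in the mouse, was at 2.16 FPKM in B117H and 2.26 FPKM in B117P. It was at 0.0697 FPKM in B140H and 0.0898 FPKM in B140P, an estimated 8 fragments in each. The log2 ratios of B140H over B117H and of B140P over B117P were -1.56 and -1.58. Csf2rb2 lies on chromosome 15 from 78112940 to 78136033 and Csf2rb from 78156420 to 78181431, 20.4 kb apart. Their first 120 coding bases, from the GENCODE M21 transcripts of GRCm38, are shown because the genes are near copies, with capitals at the bases that differ.
Csf2rb: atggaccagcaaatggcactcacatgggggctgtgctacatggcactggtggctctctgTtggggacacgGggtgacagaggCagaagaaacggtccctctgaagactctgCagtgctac
Csf2rb2: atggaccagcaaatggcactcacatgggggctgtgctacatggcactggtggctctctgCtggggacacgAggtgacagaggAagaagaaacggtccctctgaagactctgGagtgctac
In this stretch 4 bases differ, and over the whole coding sequences 95.2% of aligned bases are the same. Of all 50-base windows, 18.9% of those of Csf2rb occur in Csf2rb2 and 19.0% of those of Csf2rb2 in Csf2rb, so fragments of either gene may have been assigned to the other and the levels of the pair are uncertain. Summed, the pair was at 9.96 FPKM in B117H and 13.3 FPKM in B117P, and at 5.67 FPKM in B140H and 4.84 FPKM in B140P.

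Counted over the 9 genes, 0 were higher and 2 lower in B117H than in B117P, with a median log2 ratio of -0.20 against -0.03 over all expressed genes. Of all expressed genes, 1.41% were higher and 3.21% lower past the 2-fold rule in that comparison, 4.62% in all. In B140H over B140P, 0 of the 9 genes passed the rule, against 2.31% of all expressed genes higher and 1.63% lower, 3.94% in all, and their median was 0.07 against 0.11. All expressed genes split there into 233 higher and 164 lower, and into 175 higher and 197 lower after the libraries were centred on the median. In B140H over B117H the split was 975 higher and 925 lower, and 767 higher and 1055 lower after centring. In B140P over B117P 1 gene was higher and 7 were lower, against 5.83% and 10.8% of all expressed genes (16.6% in all), and in B140H over B117H 1 was higher and 5 were lower, against 9.69% and 9.19% (18.9% in all). Csf2rb and Csf3r passed the rule between the parental lines, with log2 ratios of -1.07 and -2.68, and not between the resistant lines, where they were -0.41 and -0.36. The comparisons between the lineages and within them share libraries, so their values are not independent. Cd34, Kit, Csf2ra and Csf2rb2 reached a mean of 1 FPKM only through lineage B117, and Csf3r only through B117P. Having passed the filter that way, they could be called only lower outside those lines, so the counts are a description. With no filter the counts of the 9 genes were the same in each comparison.

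**Figure D3:**
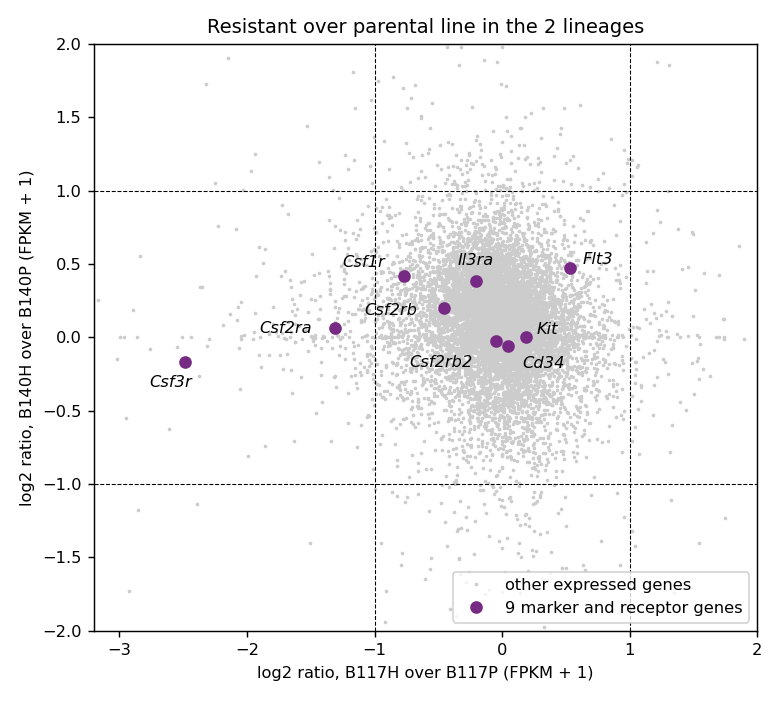
Log2 ratio of FPKM + 1 of B117H over B117P (horizontal axis) and of B140H over B140P (vertical axis) for the 9 genes, in purple, and the other expressed genes, in grey, with dashed lines at 2-fold and 144 genes outside the axes. Csf3r at -2.48 and Csf2ra at -1.31 lie left of the line for lineage B117, and all 9 genes lie within the lines for lineage B140.

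Taking both lineages together, limma with the lineage as a block compared the 2 resistant with the 2 sensitive lines over all 10066 expressed genes. It called 0 genes at an adjusted p of 0.05, with 218 genes at an unadjusted p under 0.05 and none of the 9 among them. The mean log2 ratio was 0.50 ± 0.24 (SE) for Flt3, which was higher in 2 of 2 resistant lines, and -1.33 ± 0.58 (SE) for Csf3r. The Csf3r value rests on lineage B117, since in lineage B140 it sets a listed 0 in B140H against 0.124 FPKM in B140P. The limma adjusted p was 0.9995 for each of the 9 genes. The fit has 1 residual degree of freedom.

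JAK kinases bound to the receptors switch on STAT factors, which carry the signal to the nucleus. Of 11 JAK kinase and STAT genes, 0 passed the 2-fold rule in B117H over B117P or in B140H over B140P, with medians of 0.18 and 0.03. Of all expressed genes, 4.62% and 3.94% passed it in these comparisons. Jak2, the kinase bound to the beta chain, lay between 4.24 and 5.35 FPKM, Stat5a between 14.2 and 17.3 FPKM and Stat5b between 15.8 and 18.8 FPKM. Stat4 was at 7.50 FPKM in B117H and 3.92 FPKM in B117P and was listed at 0 in B140H and B140P. The 20 expressed adaptor and effector genes had medians of -0.19 in B117H over B117P and 0.13 in B140H over B140P. In B140H over B140P 0 of them passed the rule, against 3.94% of all expressed genes.

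Of 22 expressed negative regulators, 0 passed the rule within either lineage, against 4.62% of all expressed genes in lineage B117 and 3.94% in lineage B140. Of the 22, 6 were higher in B140P than in B117P and 7 in B140H than in B117H, against 5.83% and 9.69% of all expressed genes, with 0 lower in either. Dok2, an adaptor that restrains signalling by tyrosine kinases, was at 38.4 FPKM in B140H and 1.84 FPKM in B117H, and at 66.2 FPKM in B140P and 1.04 FPKM in B117P. Socs2, a suppressor of cytokine signalling, was at 10.6 FPKM in B140H, listed at 0 in B117H, at 12.4 FPKM in B140P and at 0.134 FPKM in B117P. Sh2b3, the adaptor Lnk that limits signalling by Jak2 and Kit, was at 48.5 FPKM in B140H and 17.4 FPKM in B117H, and at 48.9 FPKM in B140P and 17.6 FPKM in B117P.

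Of 17 expressed Stat5 target genes, 3 were lower and 0 higher in B117H than in B117P, against 3.21% lower and 1.41% higher among all expressed genes. Their median was -0.36, against -0.03 over all expressed genes. The lower genes were Osm, which encodes oncostatin M, Id1, an inhibitor of helix-loop-helix factors, and the stress gene Gadd45b, with log2 ratios of -1.32, -1.52 and -1.35. Cish, a classic Stat5 target, was under 1 FPKM in all 4 lines. In B140H over B140P, 1 of the 17 was higher and 0 lower, against 2.31% higher and 1.63% lower among all expressed genes. The higher gene was Lcp2, the adaptor SLP-76, at 8.21 FPKM in B140H and 0.830 FPKM in B140P.

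Among 9 other expressed receptor and progenitor marker genes, Il7r, the interleukin 7 receptor of lymphoid progenitors, was at 4.75 FPKM in B117H and 0.917 FPKM in B117P, a log2 ratio of 1.58. It was at 15.5 FPKM in B140H and 11.2 FPKM in B140P. Il6ra, the interleukin 6 receptor chain, had a log2 ratio of -1.01 in B117H over B117P. Cd33, a sialic acid binding lectin of myeloid cells, and Cd244, a receptor of the SLAM family, were lower in B140H than in B140P, with log2 ratios of -1.12 and -1.60.

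**Figure D4:**
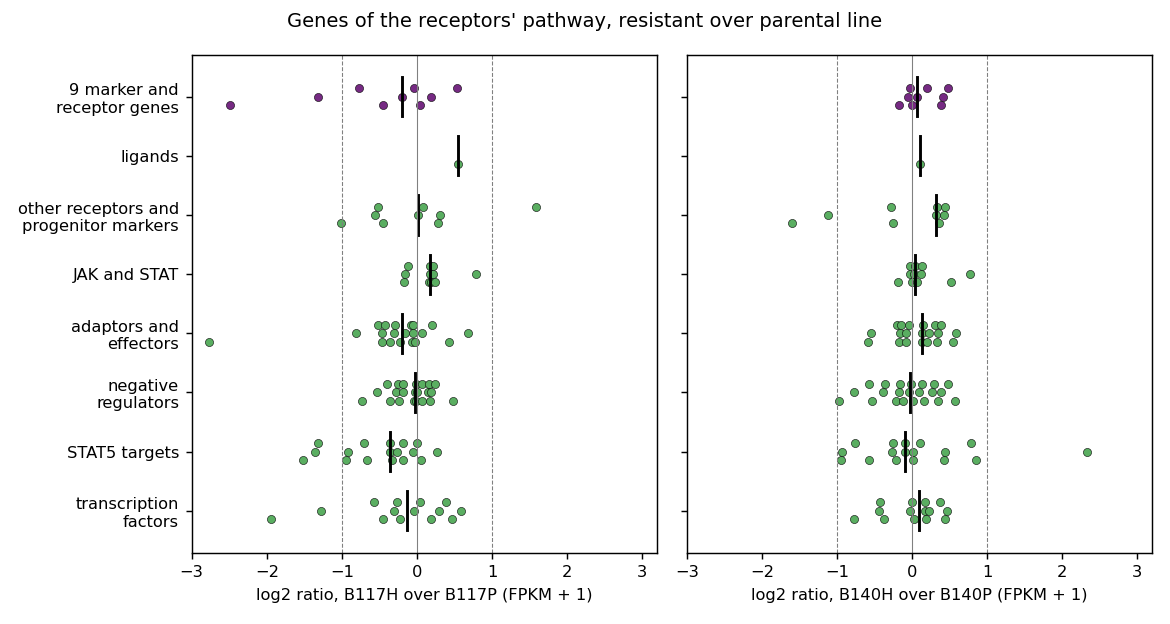
Log2 ratio of FPKM + 1 of B117H over B117P (left) and B140H over B140P (right) on the horizontal axes for the 9 genes, in purple, and for the expressed genes of 7 lists, in green, 1 point per gene with a black bar at each list's median and dashed lines at 2-fold. Csf3r at -2.48 is the purple point farthest to the left in lineage B117, and the gene far to the right in lineage B140 is Lcp2 at 2.33.

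Of 14 expressed genes for transcription factors known to act on these promoters or enhancers, 0 were higher and 2 lower in B117H than in B117P. Among all expressed genes 1.41% were higher and 3.21% lower there. In B140H over B140P 0 of the 14 passed the rule, against 3.94% of all expressed genes. The lower genes were Cebpb, of the C/EBP family, at 1.17 FPKM in B117H and 7.31 FPKM in B117P, and the repressor gene Gfi1, at 1.28 FPKM in B117H and 4.56 FPKM in B117P. Between the parental lines, B140P over B117P, 5 of the 14 were lower and 2 higher, against 10.8% and 5.83% of all expressed genes. In B140H over B117H 2 of the 14 were lower and 2 higher, against 9.19% and 9.69%. Cebpa, which drives granulocyte and monocyte commitment, was at 36.0 FPKM in B117H and 43.3 FPKM in B117P. It was at 17.7 FPKM in B140H and 12.5 FPKM in B140P. Gata2, a factor of stem cells and mast cells, was at 6.78 FPKM in B117H and 4.94 FPKM in B117P, and at 0.139 FPKM in B140H and 0 in B140P. Erg, an ETS factor of stem cells, was at 38.6 FPKM in B117H and 27.5 FPKM in B117P and listed at 0 in B140H and B140P. Meis1, a homeobox factor of stem cells and leukaemia, had the opposite order, at 18.8 FPKM in B140H and 14.4 FPKM in B140P, against 0.0303 FPKM in B117H and 0 in B117P.

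Markers of neutrophils, monocytes and macrophages differed within both lineages. The 9 neutrophil markers summed to 626 FPKM in B117H and 1352 FPKM in B117P. Of the 7 expressed ones, 2 were lower and 0 higher past the rule. Ctsg was at 402 FPKM in B117H and 735 FPKM in B117P, and Prtn3 at 172 FPKM and 488 FPKM. Camp, Ngp and Ltf were higher in B117H, at 1.44, 2.78 and 0.709 FPKM against 0.557, 1.77 and 0.532 FPKM in B117P. Those ratios were short of the rule, and the other markers of the list were lower in B117H. In lineage B140 the 9 markers summed to 377 FPKM in B140H and 418 FPKM in B140P, with 1 higher and 0 lower. The 8 monocyte and macrophage markers, Csf1r among them, summed to 226 FPKM in B117H and 299 FPKM in B117P, with 3 lower and 1 higher, and to 197 FPKM in B140H and 54.8 FPKM in B140P, with 3 higher and 1 lower. Among all expressed genes 1.41% were higher and 3.21% lower in B117H over B117P, and 2.31% higher and 1.63% lower in B140H over B140P. Cd14 was listed at 0 in B140H and Emr1 in B140P. The part of these markers in the levels of Csf3r, Csf2ra and Csf1r was not tested. Kit is also carried by mast cells, and their part in the Kit level was not tested. Of 9 mast cell markers, Tpsab1, Tpsb2, Cma1 and Fcer1a were listed at 0 in all 4 lines. Cpa3 was at or below 0.110 FPKM and Mcpt4 at or below 0.0471 FPKM. Ms4a2 was at 0.0551 FPKM in B117H and 0.544 FPKM in B117P, and listed at 0 in B140H and B140P. Hdc was at 0.606 FPKM in B117H, 0.561 FPKM in B117P, 0.246 FPKM in B140H and 0 in B140P. Mcpt8, the protease of basophils on that list, was its only expressed gene, at 20.9 FPKM in B117H and 25.5 FPKM in B117P, and at 5.65 FPKM in B140H and 15.5 FPKM in B140P. Its log2 ratio of B140H over B140P was -1.31, past the rule.

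Likeness was measured as the distance between log2(FPKM + 1) values over the 4 libraries, each gene's mean taken off, among 9179 other expressed genes that are neither small RNA genes nor unnamed clones. The genes closest to Kit were Wbp5, Itm2c and Erg, at distances of 0.09, 0.19 and 0.20. Among those closest to Csf3r were Gp49a, a surface receptor of myeloid cells, and Rab34, at 0.15 and 0.40. Those closest to Csf2ra were Lyz2, the lysozyme of macrophages and granulocytes, Pafah1b3 and Anxa3, at 0.25, 0.26 and 0.36. Those closest to Csf1r were Itfg3, Ctxn1 and Ms4a6b, at 0.05, 0.15 and 0.22. For Cd34 the closest were App, Nkg7 and S100a11, at 1.30, 1.44 and 1.63. The distance is not scaled to a gene's span on the log2 scale, which was 7.70 for Cd34 and 1.07 for Csf2rb. Distances of different members are therefore not comparable. The closest to Flt3 were Col4a6, Tmem108 and Mreg at 0.38, 0.39 and 0.39. Csf2rb was closest to Dirc2, Tal1 and B4galt1, at 0.03, 0.09 and 0.10, and Csf2rb2 to Ccdc102a, Pitpnm2 and Fam158a, at 0.03, 0.05 and 0.07. Il3ra varied by less than 2-fold and was not matched.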

How the data were processed

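The authors deposited 1 table of FPKM values per gene and line, per the file headers with mm9 loci, and with no counts or errors. The submitters' processing notes name TopHat2 2.0.4, Cuffdiff and the mm9 build. The annotation and filters are not given in the sources used here. Listed starts were read as counted from 0, since 6285 of 19357 spans then equalled those of RefSeq against 434 on the other reading, and 1 was added.

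Values were compared as log2 ratios of FPKM + 1 for genes with a mean of at least 1 FPKM, called at 2-fold. The resistant and sensitive lines were also compared with limma 3.58.1 (R 4.3.3) on log2(FPKM + 1), taking the lineage as a block because a resistant line is paired with its own parent. A trend of variance with mean was fitted, and p-values were adjusted after Benjamini-Hochberg with a threshold of 0.05. The members and lists were chosen with earlier results of these data known. The genes named are all 9 members, list genes past the rule and the 3 genes nearest to each member that varied by at least 2-fold. One gene that this rule names is not reported here. Other genes with values illustrate a list and were picked after their values were seen. Symbols not listed were looked up as RefSeq synonyms (Spi1 as Sfpi1, Syk as Sykb).

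Depth was read from how low FPKM values, multiplied by length, are spaced in 760 genes with a single GENCODE M21 transcript of at least 3 kb. Of 56 to 77 low values per library, 72.5% to 83.9% fell less than 0.15 fragments from a whole one. The unit was set from the same values, so this is no independent check, and whole counts were not recovered. Exact Clopper-Pearson 95% intervals on estimated fragments and the limit of 3 fragments cover counting error only. The limma fit and the 2-fold rule were run on simulated data with equal noise for all genes and the same change in both lineages. That checks the code and not how either performs on these libraries. Other software was Biopython 1.88, scipy 1.17.1, matplotlib 3.10.9, pandas 2.3.3 and numpy 2.4.6 under Python 3.11.15.

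Alternatives changed the pseudocount (0.1), the filter (none, or a mean of 5 FPKM), the rule (4-fold) or the scale (median centring, or TPM without small RNA genes). The limma fit was repeated with no trend, with no block, after quantile normalization and without each library. Taking off the median of genes near Flt3 and summing Csf2rb with Csf2rb2 were added after the data were seen.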

Additional observations from a re-analysis of the deposited data

Results flagged for a closer look

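The log2 ratio of Csf1r was -0.77 for B117H over B117P and 0.42 for B140H over B140P, opposite in sign and past the 2-fold rule in neither, a difference of -1.19. Csf2ra had log2 ratios of -1.31 and 0.07 in these comparisons, a difference of -1.38, where the second rests on an estimated 2.11 fragments in B140H and a listed 0 in B140P. With 1 library per line neither difference was tested.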

How the results depend on the processing

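Of 116 values of the 9 genes under other settings, 106 under settings chosen at the outset and 7 under added ones kept their side of the 2-fold rule, with their direction where called, 2 newly passed it and 1 fell short of it. The last was Flt3 in B140H over B117H, at 0.83 with the median of its neighbours taken off. The sign of the uncalled Csf2ra ratio of B140H over B140P changed to -0.04 after centring. With a pseudocount of 0.1, Csf3r passed the rule in B140H over B140P at -1.17 and in B140H over B117H at -1.95, so 1 of the 9 genes passed in B140H over B140P. In B117H over B117P, 1 passed with a minimum mean of 5 FPKM, which leaves 7 of the 9, and 1 with the 4-fold rule. Counts of all expressed genes past the rule were 707 in B117H over B117P and 647 in B140H over B140P with a pseudocount of 0.1, against 465 and 397. With a minimum mean of 5 FPKM, fewer genes being tested, they were 308 and 260, and 1028 in B140P over B117P and 1225 in B140H over B117H, against 1674 and 1900. With the 4-fold rule they were 107, 95, 610 and 650 in the same order. All expressed genes had a median of 0.11 in B140H over B140P and 0.15 in B140H over B117H, which centring removes. With TPM the splits of higher and lower genes were 175 and 267, and 735 and 1247. Limma called 0 genes, with 39 at an unadjusted p under 0.05, without the replicate block, that is, without pairing the lines of a lineage. It called 4 with a minimum mean of 5 FPKM, and between 0 and 6 when a library was left out without the block, the 6 when B140P was left out, where the cause was not tested. Leaving out B140P leaves 1 sensitive line, assumed to vary as the others do. None of the 9 genes was called under any of these fits. Depth limits Cd34, Kit, Csf2ra, Csf2rb2 and Csf3r in lineage B140, where each rests on fewer than 9 estimated fragments.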
